A study of Mus musculus with 4 samples.

Results

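The cytosolic ribosomal proteins, the protein parts of the ribosomes that translate nuclear-encoded messenger RNAs, were followed in mouse subcutaneous white adipose tissue. Members were taken by name from a deposited expression table. A row was taken if its symbol was Rpl or Rps with a number and no more than 1 further small letter, or was Rplp0, Rplp1, Rplp2 or Rpsa. By name 79 rows qualified, and 77 of them had a mean of at least 1 FPKM over all libraries. They make up 77 of 21899 rows in the table and 77 of the 12345 rows tested, with 46 proteins of the large (60S) and 31 of the small (40S) subunit. FPKM is a number of sequenced fragments scaled to the length of the transcript and to the fragment total of the library.

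The tissue came from mice given an inhibitor of miR-203 or a negative control, and each group had 2 libraries. The microRNA miR-203 represses messenger RNAs that hold sites pairing with its seed, a repression that such an inhibitor is meant to lift. Every library held RNA of 3 animals combined, so a group mean stands for 6 animals and the spread between libraries is a spread between pools. The sources used here give neither strain, sex, age, dose and duration nor whether the pools came from separate cohorts. The p-values therefore measure only the spread between these 4 pools.

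A ribosome is built from ribosomal RNA and from one copy each of most of these proteins, with the small subunit reading the messenger RNA and the large subunit joining amino acids. Messenger RNAs of ribosomal proteins mostly begin with a C followed by a run of pyrimidines, the terminal oligopyrimidine (TOP) motif, through which the mTOR pathway and Larp1 set how strongly they are translated. Their levels in a cell are high and tend to move together, and in fat, as elsewhere, ribosome production is tied to growth and nutrient signals.

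Sequences at the annotated start sites are shown for the 6 members with the smallest p, for 2 of the 4 with a negative fold change and for Rps27, the partner of Rps27l, since the choice by name did not use them. RefSeq (GRCm38.p6) holds promoter sequences for 57 of the 77 members matched by symbol. Among those not matched were Rpl3, Rpl7, Rpl8, Rpl17, Rpl21, Rpl23a, Rpl29, Rpl30, Rpl32, Rpl36, Rplp1, Rps14, Rps20, Rps27a and Rps29. Each window runs from 10 bases before to 20 bases from the annotated start, and capitals mark its longest run of C and T.
Rps27: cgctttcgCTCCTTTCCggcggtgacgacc
Rpl13a: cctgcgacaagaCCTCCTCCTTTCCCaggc
Rps18: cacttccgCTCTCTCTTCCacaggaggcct
Rps21: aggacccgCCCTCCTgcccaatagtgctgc
Rpl9: gggCCCTgacggattacaagaacgtgatga
Rps25: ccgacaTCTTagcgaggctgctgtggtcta
Rpl39: gctccgcctctagcgaCTTCTTCTaatcgc
Rps27l: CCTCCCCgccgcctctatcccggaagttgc
Rpl39l: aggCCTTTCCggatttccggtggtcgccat
The windows lie at chr3:90213629-90213658 (minus strand) for Rps27, chr7:45128726-45128755 (minus) for Rpl13a and chr17:33955646-33955675 (minus) for Rps18. Those of Rpl39, Rps21 and Rpl9 lie at chrX:37085203-37085232 (minus), chr2:180257369-180257398 (plus) and chr5:65391412-65391441 (minus), and that of Rps25 at chr9:44407704-44407733 (plus). For Rps27l the window is chr9:66946076-66946105 (plus), the upstream of its 2 annotated starts (as in Rps21), and for Rpl39l it is chr16:10170218-10170247 (plus).

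A run of at least 7 pyrimidines on the gene's own strand was in the window of 32 of the 57 matched members (56.1%), against 21.3% of the 9342 tested symbols with a RefSeq promoter. Such a run was not shared by all, since the windows shown for Rpl9 and Rps25 have none. The letters CTTTC, again on the gene's own strand, were in the windows of 15 members (26.3%), against 4.15% of those symbols. Over the whole 300 bases (250 before to 50 after the start) and on both strands, CCGGAAG, the core bound by Ets family factors such as Gabpa, was found in 25 members (43.9%) and in 19.8% of tested symbols. AAGATGGC, a form of the Yy1 motif, was found there in 5 members (8.77%) and in 5.26%. TATAAA, searched on the gene's own strand from 40 to 16 bases before the start, was in 0 of 57 members and in 1.49%. A gene with several annotated starts was taken to hold a motif if any of them did. CTTTC can lie within a pyrimidine run, and the last letters of CCGGAAG can be the opening letters of AAGATGGC. A match describes the letters only, and an annotated start can differ from the start used in fat.

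The inhibitor's target was also set against the members' own 3' untranslated regions. The mature miR-203-3p sequence from RefSeq is shown with its seed, bases 2 to 8, in capitals, and so is each site in a member that pairs with that seed.
miR-203-3p: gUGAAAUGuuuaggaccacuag
Rpl15: tggatgttgaCATTTCAcaaaggccat
Rpl39l: ttttctctatCATTTCAtgtgacaatt
The microRNA lies at chr12:112130927-112130948 on the plus strand. The 7 letters CATTTCA were found, on the transcript strand of the longest annotated 3' untranslated region (GENCODE M21, GRCm38), in 2 of 77 members (2.6%), against 16.8% of 12178 tested genes. These regions are short in ribosomal protein genes, with a median of 177 bases against 1153 over the tested genes. Rpl15, a core protein of the large subunit, was at 280.9 and 271.0 FPKM in the controls, against 298.9 and 301.8 in the inhibitor libraries. Its log2 fold change of 0.12 ± 0.078 (limma, SE, n = 2 per group, adjusted p = 0.448) lay at the members' median of 0.12, and that of Rpl39l was -0.11.

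The members were among the most abundant messenger RNAs of the tissue. Of the 77, 76 had at least 100 FPKM in every library and stood in the top 500 rows by mean. The highest was Rpl13a, a large-subunit protein that human cells also use outside the ribosome, with 1559, 1169, 1769 and 1791 FPKM in control 1, control 2, inhibitor 1 and inhibitor 2. It was followed by the stalk protein Rplp1, with a mean of 1518 FPKM, and by Rps27, a zinc-binding small-subunit protein, with a mean of 1486. Rps12, Rps24 and Rps29, all of the small subunit, followed with means of 1354, 1276 and 1063 FPKM. Among those at the low end stood Rpl37 with a mean of 179.7 FPKM, Rps27l with 198.7, Rps20 with 214.7 and Rpl35 with 267.5. Leaving out Rpl39l, the highest member was 8.75 times the lowest, although the intact ribosome holds most of these proteins in equal number. The order hardly moved between libraries, with a Spearman correlation across the 77 members between 0.983 and 0.988 for the 6 pairs of libraries, given as a description since all members share each library's scaling. Levels between genes are per length, and members are short, with a median longest transcript of 838 bases against 2882 over the tested genes, so their FPKM leans on a length correction whose settings the sources used here do not give.

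**Figure D1:**
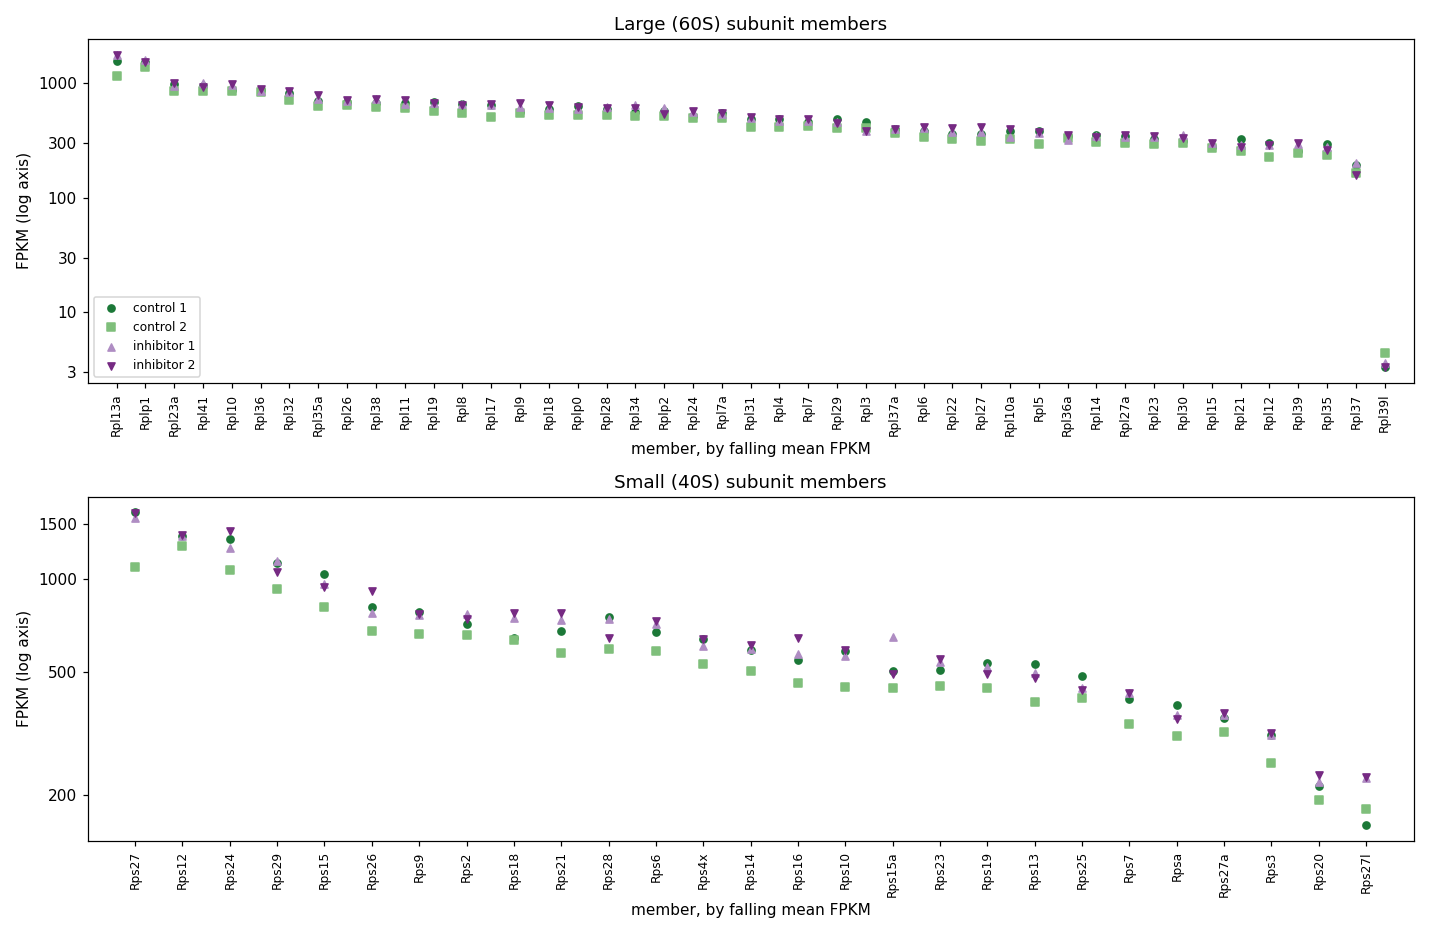
FPKM (log axis) of 72 of the 77 members in the 4 libraries, large subunit above and small subunit below, ordered by mean. All of these but Rpl39l lie above 100 FPKM, and the squares of control 2 are the lowest of the 4 points in 67 of the 72 columns.

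Paralogs formed the lower edge of the set. Rpl39l, a copy of the tunnel protein Rpl39 known mainly from male germ cells, was the member just inside the limit of 1 FPKM, at 3.33 and 4.37 FPKM in the controls, against 3.62 and 3.32 in the inhibitor libraries. Its groups overlapped (adjusted p = 0.783), and Rpl39 itself had a mean of 274.5 FPKM. Just outside the limit stood Rpl3l, the copy of Rpl3 found in striated muscle, at 0.330 FPKM in control 1 and listed at 0 elsewhere, and Rpl10l, the germ-cell copy of Rpl10, listed at 0 in all 4 libraries. Of 12 testis markers, Prm1, Prm2, Tnp1, Tnp2, Ldhc, Pgk2, Odf1, Akap4 and Acrv1 were listed at 0 in all libraries, and Ddx4 and Dazl stayed at or under 0.692 FPKM. The meiotic gene Sycp3 was the exception, at 16.3 and 25.9 FPKM in the controls, against 12.7 and 15.2 in the inhibitor libraries.

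The libraries themselves differed in ways that touch these genes. Rows above 0 numbered 15373 to 15587, depth relative to control 1 was 0.898 to 1.05, and absolute depth is unknown. Of all FPKM, 14.4% in control 1 and 17.5% in control 2 belonged to the 13 genes of mitochondrial DNA, and 10.2% and 12.1% did in inhibitor 1 and inhibitor 2. Adipocyte markers, all 18 measured, summed to 30426 and 32085 FPKM in the controls, and came to 26122 and 24559 in the inhibitor libraries, while skeletal muscle markers summed to at most 52.5 and epithelial ones to at most 4.46. Markers of brown and beige fat summed to 1670 and 1557 FPKM in the controls, against 786.9 and 721.3 in the inhibitor libraries, with 8 of 13 called lower. The 20 measured markers of B cells and lymph node summed to 725.7 and 135.2 FPKM in the controls, and came to 422.8 and 473.3 in the inhibitor libraries. In control 2 the B cell gene Ms4a1 stood at 0.0775 FPKM, against 18.3 in control 1. Those of T and NK cells summed to 191.7, 105.2, 295.4 and 352.8 FPKM in control 1, control 2, inhibitor 1 and inhibitor 2, with 5 of 20 called higher. In bulk tissue fewer cells of a type and less RNA per cell cannot be told apart.

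Across libraries the members mostly moved together, and the library that stood apart was control 2. It had the lowest value of the 4 in 72 of 77 members, whereas control 2 was lowest in 37.4% of all rows tested. Control 1 was above control 2 in 75 of 77 members, against 57.5% of all rows. The median difference between the controls, control 2 minus control 1 on the log2(FPKM + 1) scale, was -0.19 over the members and -0.04 over all rows tested. It was -0.24 for the small and -0.16 for the large subunit. The inhibitor libraries differed by a median of 0.02 only. The exceptions to control 2 as the lowest library were Rps27l, lowest in control 1, Rpl3 and Rpl36a, lowest in inhibitor 1, and Rpl39l and Rpl37, lowest in inhibitor 2. The part of the lower lymph node markers or the higher mitochondrial share of control 2 in this difference was not tested.

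**Figure D2:**
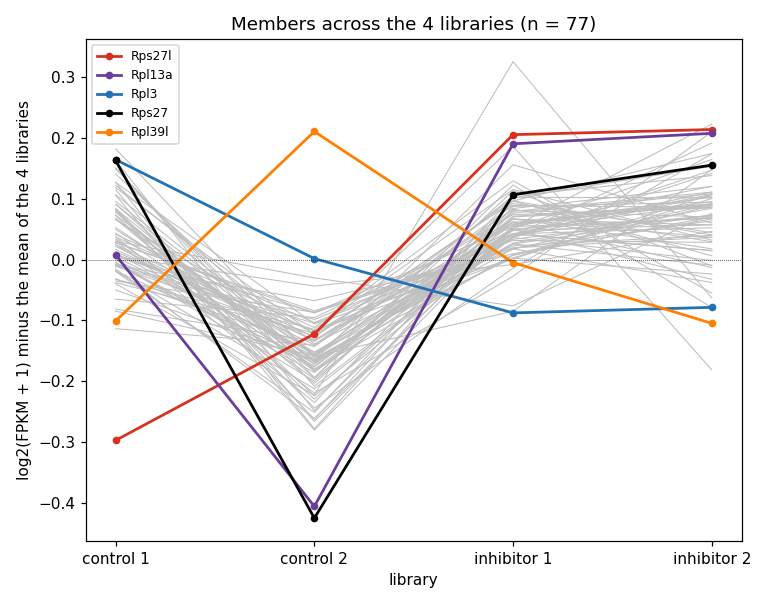
Log2(FPKM + 1) of each of the 77 members in the 4 libraries, as the difference from the member's own mean, with 5 members in colour and the rest in grey. Most lines dip at control 2, those of Rps27 and Rpl13a furthest, while Rps27l is lowest in control 1 and Rpl39l highest in control 2.

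The members that differed most between the controls were not those that differed most between the inhibitor libraries. Between the controls the widest gaps were in Rps27 (1641 and 1091 FPKM, a log2 difference of -0.59), Rpl13a (-0.41), Rps13, at the subunit interface side of the small subunit (529.9 and 398.0 FPKM, -0.41), and Rpl12, at the base of the stalk (299.9 and 226.1 FPKM, -0.41). Between the inhibitor libraries the widest were in Rps15a (646.7 and 493.6 FPKM, -0.39), Rpl37 (203.4 and 157.4 FPKM, -0.37), Rps26, at the exit of the messenger RNA channel (775.7 and 914.9 FPKM, 0.24), and Rpl10a, in the L1 stalk (341.6 and 401.7 FPKM, 0.23). For these 8 members the spread within a group was as large as, or larger than, most differences between groups described next.

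The comparison of inhibitor with control tissue asked which members differed by treatment. At an adjusted p under 0.05 with limma, 0 of 77 members were higher and 0 were lower in the inhibitor libraries, against 3.22% of all rows tested called higher and 0.267% called lower (3.48% together, 397 and 33 rows, or 326 and 92 with quantile normalization). An unadjusted p under 0.05 was reached by 4 members, Rps27l, Rps18, Rpl39 and Rpl13a, against 19.3% of all rows. The sign of the difference was nevertheless shared: 73 of 77 members had a positive log2 fold change, against 60% of all rows. Both inhibitor values lay above both control values in 37 members (48.1%; 33.1% of all rows), and below both in 1, Rpl3 (1.3%; 19.1% of all rows). With 2 libraries per group, a simulated log2 change of 0.5, larger than that of any member, was called in 0.8% of cases. A count of 0 calls therefore does not show that the members were equal between groups. The median log2 fold change was 0.12 over the members, 0.11 for the large and 0.14 for the small subunit, and 0.07 over all rows.

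The differences were small and tightly spaced. They ran from -0.17 to 0.42, with the middle of the distribution from 0.08 to 0.17, whereas the same quartiles over all rows were -0.11 and 0.25. No member reached a 1.5-fold difference in either direction, which 8.96% of all rows did. The 95% interval of the fold change lay within 1.5-fold of no change for 73 of 77 members, with a median width of 0.27 to each side. The highest upper bound was 0.79, in Rpl13a, and the lowest lower bound was -0.57, in Rpl39l.

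**Figure D3:**
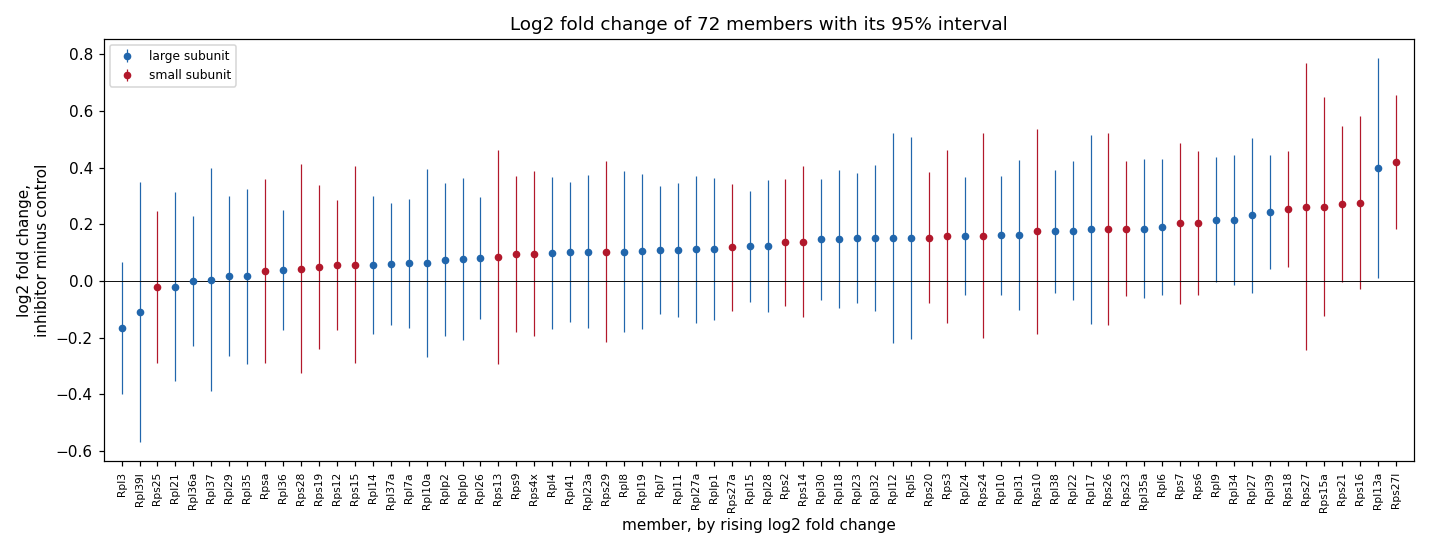
Log2 fold change (inhibitor minus control, log2(FPKM + 1) scale) of 72 of the 77 members, each with its 95% interval from limma, n = 2 libraries per group, ordered by size and coloured by subunit. The points rise from -0.17 in Rpl3 to 0.42 in Rps27l, and the intervals of 4 members, Rpl13a, Rpl39, Rps18 and Rps27l, lie above 0.

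The shared sign rested on control 2. Without it, 48 of 77 members had a positive log2 fold change, and the median was 0.03, as it was over all rows. Compared with control 1 alone, 65 members had an inhibitor mean within 10% of it. Without control 1 the median was 0.23 and 75 members were positive, with log2 fold changes of 0.61 in Rpl13a and 0.56 in Rps27. A fit with 1 control takes its spread from the inhibitor libraries alone, so only effect sizes are given for it. In 37 members both inhibitor values lay above the remaining control without control 2, and in 19 both lay below it, while without control 1 these counts were 73 and 2. Such separation is easier against 1 control, so these counts cannot be read against those from all libraries. Shares over all rows were not computed for them or for the counts of positive members under the alternatives. Other scalings lowered the median of all rows too and left the members' median above that of all rows. With upper quartile scaling 46 members were positive with a median of 0.02, when that of all rows was -0.03. Once the 13 mitochondrial genes were left out of the total, 65 were positive with a median of 0.07, against 0.02 over all rows.

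As a share of all FPKM, the members took 7.77% and 6.52% in the controls and 7.99% in each inhibitor library. The group means were 7.15% ± 0.880 and 7.99% ± 0.00309 (SD, n = 2 each). Both inhibitor shares lay above both control shares, and the difference of 0.842 percentage points gave p = 0.333 in a two-sided exact permutation test, the smallest p that 2 against 2 libraries allow. Without the mitochondrial genes in the total the shares were 9.07%, 7.91%, 8.90% and 9.08%, so that control 1 lay between the inhibitor libraries. The difference was then 0.50 points (exact permutation p = 0.667), and -0.0827 points without control 2. Without the 100 highest other rows in the total it was 0.355 points (exact permutation p = 1), and -0.345 points without control 2.

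**Figure D4:**
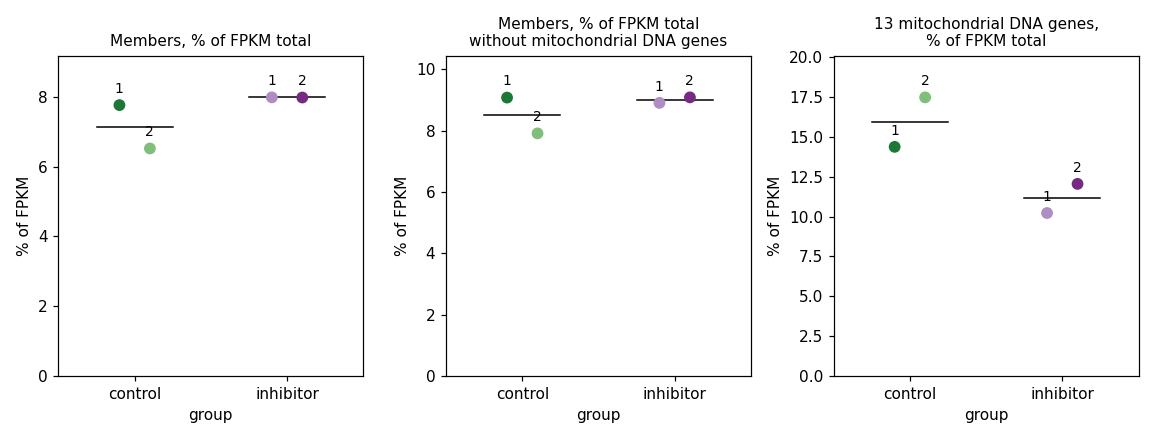
Share of the FPKM total taken by the 77 members, the same with the 13 mitochondrial DNA genes left out of the total, and the share of those 13 genes, in % per library (numbered points) with group means as lines. Control 2 is lowest in the first and second panels at 6.52% and 7.91%, and highest in the third at 17.5%.

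Rps27l, a copy of Rps27 that is a target of p53 in human cells, had the highest fold change and the smallest p of all members. It was at 159.7 and 180.4 FPKM in the controls, against 226.7 and 228.1 in the inhibitor libraries. The groups did not overlap, and control 1 was the lowest library, unlike in nearly all other members. The log2 fold change was 0.42 ± 0.093 (limma, SE, n = 2 per group), with a 95% interval of 0.18 to 0.66 and an adjusted p of 0.0912, which missed the threshold. The difference stayed positive under each alternative tried, between 0.31 and 0.51, and its adjusted p ranged from 0.0516 to 0.443. Its partner Rps27, at 1641 and 1091 FPKM in the controls, against 1578 and 1633 in the inhibitor libraries, overlapped between groups (log2 fold change 0.26 ± 0.20, adjusted p = 0.527). Rps27l lies at chr9:66946086-66949516 on the plus strand and Rps27 at chr3:90212522-90213651 on the minus strand (GENCODE M21, GRCm38).

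Of the other members with the smallest p, Rpl13a is known from human myeloid cells to leave the ribosome after interferon gamma and to join the GAIT complex, which holds back the translation of inflammatory messenger RNAs. Its values, 1559 and 1169 FPKM against 1769 and 1791, did not overlap, and the log2 fold change was 0.40 ± 0.15 (adjusted p = 0.249) over all libraries and 0.19 without control 2. Rps18, in the head of the small subunit, was at 643.6 and 631.6 FPKM in the controls, against 747.3 and 774.8 in the inhibitor libraries. Here the controls lay close together, and the log2 fold change was 0.25 ± 0.081 (adjusted p = 0.183). Rpl39, which lines the tunnel that the new protein leaves by, was at 257.8 and 244.9 against 294.2 and 301.1 FPKM (0.24 ± 0.080, adjusted p = 0.192). The small-subunit protein Rps21, at 677.1 and 576.3 against 733.9 and 774.7 FPKM, and the large-subunit protein Rpl9, at 566.8 and 546.4 against 621.4 and 672.5 FPKM, had log2 fold changes of 0.27 and 0.22 (adjusted p = 0.266 for each).

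Members with a negative value were 4. Rpl3, a large-subunit protein near the peptidyl transferase centre, was at 457.5 and 408.5 FPKM in the controls, against 383.9 and 386.3 in the inhibitor libraries, the only member with both inhibitor values below both controls (log2 fold change -0.17 ± 0.092, adjusted p = 0.391). In Rpl39l, at -0.11, the groups overlapped. The small-subunit protein Rps25, which viral internal ribosome entry sites need, was at 484.7 and 412.4 against 444.5 and 436.5 FPKM, and Rpl21 of the large subunit at 324.2 and 255.0 against 289.1 and 278.1 FPKM. In both, the inhibitor values lay between the controls, and their log2 fold changes were -0.02 and -0.02.

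Ordered by position in the ribosome, the members differed little. The stalk proteins Rplp0, Rplp1 and Rplp2, which call elongation factors to the large subunit, had log2 fold changes of 0.08, 0.11 and 0.07. Rplp0 was at 629.4 and 525.3 FPKM in the controls, against 593.6 and 620.4 in the inhibitor libraries, so the groups overlapped. Rpl5 and Rpl11, which carry the 5S ribosomal RNA and, when free, bind the p53 inhibitor Mdm2, had log2 fold changes of 0.15 and 0.11, with overlapping groups in both. The 9 proteins of the exit tunnel and its rim were all positive, from 0.02 in Rpl35 to 0.24 in Rpl39, and 0 were called. The 8 proteins listed for the messenger RNA path and decoding centre ran from 0.03 in Rpsa to 0.19. Of the members whose human counterparts are mutated in Diamond-Blackfan anaemia, 9 were listed, not all of them. These ran from 0.05 in Rps19 to 0.20, and 0 were called in either list. Control 2 was the lowest library in every one of these members.

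Ribosomal proteins whose symbols the naming rule did not cover were examined beside the members, with 7 of 10 tested, 0 called and 1 at an unadjusted p under 0.05. Fau, which encodes a ubiquitin-like protein fused to a small-subunit protein, was at 752.0 and 621.3 FPKM in the controls, against 779.0 and 768.7 in the inhibitor libraries (log2 fold change 0.18, adjusted p = 0.458). The member Rps27a, which is made as a fusion with ubiquitin, stood at 0.12 (adjusted p = 0.516). Gnb2l1, the signalling scaffold Rack1 on the small subunit, was at 369.4 and 304.3 against 349.0 and 363.5 FPKM (0.09). Rps3a1 was at 606.1 and 547.6 against 640.4 and 644.5 FPKM (0.16). Rpl22l1, a copy of Rpl22, was at 82.6 and 89.1 against 99.6 and 106.2 FPKM (0.26, adjusted p = 0.210), with control 1 lowest as in Rps27l, while Rpl22 had a log2 fold change of 0.18. Rpl36al, a copy of Rpl36a, had 0.15, and Rpl36a 0.00015.

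The machinery that makes ribosomes showed 1 call. Of 111 tested assembly factors, out of 115 listed, 1 was higher and 0 were lower, against 3.22% and 0.267% of all rows, and 16 had an unadjusted p under 0.05. The median log2 fold change was 0.17, and 97 of the 111 were positive, against 60% of all rows. Nop58, a core protein of the box C/D snoRNA particles that methylate ribosomal RNA, rose from 23.2 and 21.7 FPKM in the controls to 40.4 and 42.5 in the inhibitor libraries (log2 fold change 0.86 ± 0.097, limma, adjusted p = 0.0166). Next came Rpf2, which brings the 5S particle into the large subunit (0.51, adjusted p = 0.0967), Eif6, which keeps the subunits apart (0.38, adjusted p = 0.111), and Noc2l (0.44, adjusted p = 0.128). Control 2 was lowest in 61 of these 111 genes, against 37.4% of all rows, and control 1 was lowest in 31. Against control 1 alone their median log2 difference was 0.12, where the members and all rows each had 0.03. Against control 2 alone it was 0.23, as in the members, and 0.10 over all rows. Among 21 tested genes of RNA polymerase I and ribosomal DNA transcription 0 were called (3 at an unadjusted p under 0.05), with a median of 0.06 and the shared polymerase subunit Polr2k foremost at 0.49 (adjusted p = 0.129).

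Messenger RNAs outside the ribosome that also carry the TOP motif were also lower in control 2. Control 1 was above control 2 in all 24 tested, and control 2 was lowest in 19. Of these 24, 0 were called, 1 had an unadjusted p under 0.05, and the median log2 fold change was 0.10. Vim, the intermediate filament vimentin, had the smallest p (0.29, adjusted p = 0.166), followed by the translationally controlled protein Tpt1 (0.23, adjusted p = 0.260). Initiation and elongation factors, 55 tested and several of them TOP genes too, had 0 calls, 7 with an unadjusted p under 0.05 and a median of 0.03. Their smallest p-values were in negative genes, the poly(A)-binding protein Pabpc4 (-0.54, adjusted p = 0.0900) and the exchange factor subunit Eif2b2 (-0.64, adjusted p = 0.0912). Without control 2 the log2 fold change of Eif2b2 was -0.82.

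Regulators of translation upstream of the ribosome had few calls outside the interferon response. Among 37 tested mTOR and TOP regulators 0 were called (8 at an unadjusted p under 0.05) and the median was 0.06. Eif4ebp1, a repressor of translation that mTOR switches off, was at 147.7 and 161.7 FPKM in the controls, against 122.8 and 116.7 in the inhibitor libraries (-0.37, adjusted p = 0.112). Quality control and stalling factors had 0 calls in 27 tested, 2 with an unadjusted p under 0.05, and the helicase Ascc3 the smallest p (0.66, adjusted p = 0.117). The GAIT complex and its kinases had 0 calls in 6 tested, which include Rpl13a itself, with an unadjusted p under 0.05, and Gapdh (-0.23, adjusted p = 0.295). Interferon-induced proteins that block translation were the contrast to all of these, with 15 of 16 tested called higher and a median of 1.63. Ifit1, which binds foreign messenger RNA caps, rose from 9.91 and 14.8 to 84.3 and 97.8 FPKM (2.80, adjusted p = 0.00812), and Ifit3b stood at 2.65.

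Targets of p53, which free ribosomal proteins can activate, were examined because Rps27l is among them in human cells. Of 18 tested out of 20 listed, 2 were higher and 0 lower, against 3.48% of all rows called in either direction, with a median log2 fold change of 0.15. An unadjusted p under 0.05 was reached by 6 (19.3% of all rows), and 13 were positive and 5 negative (60% of all rows positive). Both inhibitor values lay above both control values in 7 and below both in 1 (33.1% and 19.1% of all rows). With no filter, with upper quartile or median-ratio scaling and with eBayes without a trend, 1 of these targets was called. Cdkn1a, the cell cycle inhibitor p21, rose from 36.6 and 36.4 FPKM in the controls to 78.8 and 74.8 in the inhibitor libraries (1.05 ± 0.086, limma, adjusted p = 0.00906). Bax, a trigger of apoptosis, rose from 33.1 and 35.8 to 58.3 and 55.3 FPKM (0.71 ± 0.094, adjusted p = 0.0246), and its fold change was 0.60 to 0.71 under 4 alternatives that ended the call, namely no filter, upper quartile and median-ratio scaling and eBayes without a trend (adjusted p of 0.0523 to 0.0724). Pmaip1 (0.87, adjusted p = 0.0708) and Mdm2, the p53 inhibitor that Rpl5 and Rpl11 bind (0.46, adjusted p = 0.131), did not pass. Without control 1 the log2 fold change of Pmaip1 was 1.04. Calls over all rows ended without inhibitor 1 and without inhibitor 2, those of Cdkn1a, Bax and Nop58 included (adjusted p of 0.119 to 0.232), in fits whose spread came from the controls alone. Their fold changes were then 1.01 and 1.09 for Cdkn1a, 0.67 and 0.74 for Bax, and 0.89 and 0.82 for Nop58. Interferon genes moved with these values in the same libraries, and their part was not tested.

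The mitochondrial ribosome, which translates the messages of mitochondrial DNA, gave other values. Its 77 tested proteins had 0 calls, against 3.48% of all rows, and 7 had an unadjusted p under 0.05 (19.3% of all rows). Of the 77, 27 were positive, a smaller share than the 60% of all rows. The median log2 fold change was -0.07, against 0.07 over all rows. Control 2 was the lowest library in 10 of them, against 72 of the cytosolic members and 37.4% of all rows. The median difference between the controls was 0.03, against -0.19 over the cytosolic members and -0.04 over all rows. These differences, between the lists and from all rows, are descriptions and were not tested.

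**Figure D5:**
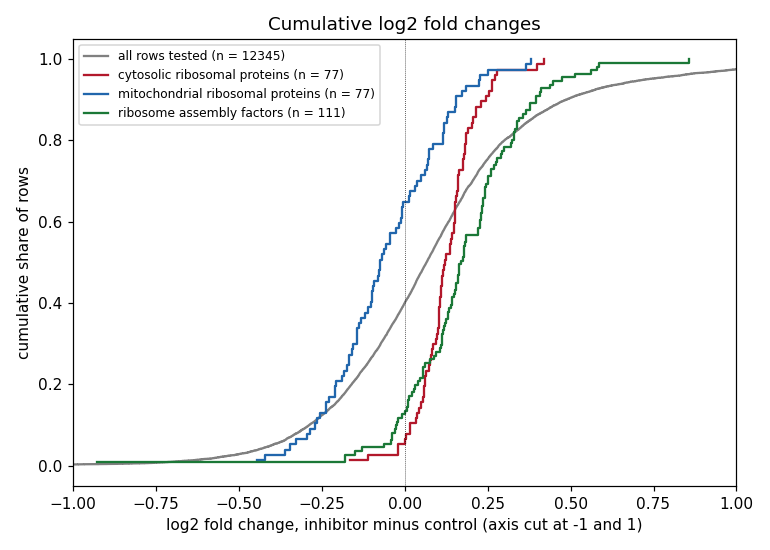
Cumulative share of rows by log2 fold change (inhibitor minus control) for all 12345 rows tested, the 77 cytosolic members, 77 mitochondrial ribosomal proteins and 111 assembly factors, with the axis ending at -1 and 1. The cytosolic curve is steep around its median of 0.12, the mitochondrial one has a median of -0.07, and that of the assembly factors 0.17.

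How fragments were shared among copies limits single values. In GENCODE M21, 58 of 77 members have named pseudogenes, 285 in all, and Rps27l, Rps21 and Rpl39l have none. Small nucleolar RNAs lie within 28 members, 55 in all, with 4 inside Rpl13a. Exons of 2 members, Rpl13a and Rps10, overlap another gene on the same strand, and those of 13 overlap one on the other strand. How the authors' counting treated these, and whether it used strand, the sources used here do not say, so the values of such members are uncertain.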

How the data were processed

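RNA was extracted with Trizol from frozen tissue, and libraries were prepared from total RNA with a directional kit, per the labels' protocols. TopHat, TopHat2 2.0.11, Cufflinks 2.1.1 and build mm10 are named in the submitters' processing notes, while for settings, annotation and use of strand the sources used here give nothing. What the authors deposited were FPKM values for each gene, per the file headers, with no read numbers, so absolute depth is unknown.

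FPKM values were moved to log2(FPKM + 1), and rows whose mean reached 1 FPKM were tested with limma 3.58.1 in R 4.3.3 (lmFit, eBayes with a trend, two-sided, Benjamini-Hochberg adjustment over all 12345 rows, threshold 0.05). Fold changes on this scale understate those of low genes. The test had 5.29 degrees of freedom, 2 of them residual. On simulated data it called 0.8% of log2 changes of 0.5 in rows drawn from all those tested, and smaller changes were not simulated. Summed shares were compared with exact permutation tests over libraries. Relative depth came from steps between values under 0.3 FPKM. Coordinates, untranslated regions and overlaps came from GENCODE M21, which holds 77 of 77 members' identifiers, and start-site and microRNA sequences from RefSeq.

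The members and gene lists were chosen with earlier results of these data known. Named are the members with the smallest p in each direction, the highest and lowest 6, those with the widest gaps within a group, role and paralog groups in part, and up to 4 genes with the smallest p per list. Some genes that this rule covers are not reported here, and 5 members are not drawn in the plots by member. The alternatives changed pseudocount, filter, scaling, trend, block, rows sharing an identifier and each library in turn.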

Additional observations from a re-analysis of the deposited data

How the results depend on the processing

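Of 15 alternatives, 4 left out a library, and in the others 0 members were called in either direction. With no filter 122 rows over the table were called higher and 10 lower, with eBayes without a trend 215 and 11, and with a mean of at least 10 FPKM 105 lower. Rows called lower were 92 with quantile normalization, 55 with upper quartile scaling, 54 with the total without mitochondrial genes and 21 with the replicate block. Members with both inhibitor values above (below) both controls were 21 (2) with quantile normalization, 15 (8) with upper quartile scaling and 22 higher without mitochondrial genes. With upper quartile scaling 46 members were positive, with medians of 0.016 (all), 0.0053 (large) and 0.033 (small). That of all rows went from 0.066 to -0.033 with quantile normalization and -0.029 with upper quartile scaling. None of the named genes whose sign turned was called in all libraries. The share difference of 0.842 points fell to 0.50 and 0.355 in the smaller totals and was 0.825 without paralogs and Rps27a.

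Leaving out 1 library in turn gave 0 to 687 rows called higher, 0 to 98 lower, 0 to 2 members called higher, 37 to 73 above and 2 to 19 below both controls, and 48 to 75 positive. Medians ran from 0.027 to 0.225 (all members), 0.030 to 0.203 (large) and 0.026 to 0.253 (small), and the share difference from 0.220 to 1.46, or -0.0827 to 1.08 without mitochondrial genes. Same-numbered libraries did not deviate together (r = -0.0058 over all rows, across genes). With 2 libraries per group this cannot decide whether same-numbered libraries shared a batch. The replicate block, which rests on the number in common, gave 333 rows higher and 21 lower.

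Of the genes named in the text, and not of all members, fold changes that turned negative were Rps12 (-0.017), Rpl37 (-0.067), Rpl35 (-0.056), Rpl10a (-0.0094), Rpl36a (-0.073), Rpsa (-0.038) and Rps19 (-0.023) with median-ratio scaling. With quantile normalization they were Rpl37 (-0.075), Rpl35 (-0.055), Rpl36a (-0.056), Rpsa (-0.0067) and Rps19 (-0.0090), and without mitochondrial genes -0.047, -0.035, -0.052, -0.017 and -0.0028. Upper quartile scaling gave Rplp0 -0.029, Rplp2 -0.032, Rps12 -0.051, Rps29 -0.0034, Rpl37 -0.10, Rpl35 -0.089, Rps13 -0.021, Rpl10a -0.043, Rpl36a -0.11, Rpsa -0.072, Gnb2l1 -0.020 and Rps19 -0.057. Leaving out 1 library gave, for those whose sign turned, Rpl39l -0.27 to 0.046, Rps25 -0.14 to 0.095, Rpl21 -0.19 to 0.15, Rplp0 -0.052 to 0.21, Rplp2 -0.018 to 0.17, Rpl5 -0.039 to 0.34, Rpl12 -0.052 to 0.35, Rps27 -0.032 to 0.56, Rps12 -0.00014 to 0.11 and Rps24 -0.0043 to 0.32. It gave Rps29 -0.039 to 0.25, Rpl37 -0.18 to 0.19, Rpl35 -0.13 to 0.17, Rps13 -0.12 to 0.29, Rpl10a -0.064 to 0.19, Rpl36a -0.076 to 0.076, Rpsa -0.13 to 0.20, Gnb2l1 -0.053 to 0.23, Rpl36al -0.0027 to 0.31 and Rps19 -0.082 to 0.18. Beyond what the construction of each alternative shows, the cause was not tested.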
